A study of Homo sapiens with 19 samples.

Results

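The genes described here are 9 transcription factors of the monocyte and macrophage lineage, SPI1, CEBPA, CEBPB, CEBPD, IRF8, KLF4, EGR2, MYC and MYB. They were taken by their gene name on the array, and all 9 were found among the 31033 gene names that the arrays carry. Together they had 14 probes, and 13 of these were well above background on all 19 arrays. The cells were THP-1, a human monocytic leukaemia line, and all of them had been differentiated into macrophage-like cells with 30 nM PMA, a phorbol ester. After a rest without PMA, UT cells were left untreated and the vit C cells received 0.1 mM vitamin C, and RNA was taken 8, 24, 48 and 96 h later. UT cells were measured on 2, 3, 2 and 3 arrays at these time points and vit C-treated cells on 3, 2, 2 and 2. No unstimulated THP-1 cells were among the samples used here, so that every change is a change after PMA.

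These factors act in layers. PU.1 (the product of SPI1) and C/EBPα commit progenitors to the myeloid lineage, MYB and MYC keep progenitors dividing, and IRF8, KLF4 and EGR2 act with PU.1 on the way to monocytes and macrophages. C/EBPβ and C/EBPδ are induced in activated macrophages, where they drive inflammatory genes. PMA arrests THP-1 cells and makes them adhere.

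All 8 monocyte and macrophage markers examined (CD14, CD68, LYZ, CSF1R, ITGAM, CD33, TYROBP and PTPRC) were well above background on every array, except LYZ on an array of UT cells at 48 h. Their summed level, on a linear scale where each array's 75th percentile is 1, lay between 407.1 and 622.6 on the 19 arrays. Of the 6 fibroblast markers, COL1A2 was well above background on no array. Their sum was at most 0.759 in UT cells at 8 h, between 4.49 and 4.55 in UT cells at 48 h, between 1.48 and 3.32 in UT cells at 96 h and at least 5.50 on the vit C arrays of 48 and 96 h, and its part in the results was not tested. The sum of 5 epithelial markers stayed between 1.56 and 3.80, with CDH1 and EPCAM (TACSTD1 on the array) above background on no array, and that of 6 T and B cell markers between 1.46 and 4.99, with CD3D above background on no array.

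The arrays lay on 4 slides, a limit for every contrast of vit C with UT. It is also a limit for UT cells at 96 h, and for vit C at 48 and 96 h, against their own 8 h arrays. At 8 and 24 h the UT arrays were all on slide 1 and the vit C arrays all on slide 2, and at 48 h the vit C arrays were on slides 2 and 4. At 96 h UT replicate 1 was on slide 1, UT replicates 2 and 3 on slide 2, and both vit C arrays on slide 3, which held nothing else, so that slide and treatment cannot be told apart there. All vit C arrays at 8 h were on slide 2, so that slide and time cannot be told apart in vit C-treated cells at 96 h against 8 h either. The comparisons of UT cells at 24 and 48 h with 8 h lie within slide 1. Values given within slide 1 for UT cells at 96 h, and within slide 2 for vit C at 48 h, rest on 1 array of that time. UT 96 h replicate 3 stood apart, with a correlation of at most 0.968 to the other arrays of its group (0.981 between the other two), and the array nearest to it was a vit C array at 96 h. Both vit C arrays at 96 h were the brightest, with a 75th percentile of 806 and 924 against 296.8 to 638.5 on the others.

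Levels are given below as log2 of the signal of a gene's brightest probe minus the array's 75th percentile, so that 0 is the 75th percentile of the array and a level is compared only with that of the same probe. Since RNA of whole cultures was measured, fewer cells of a type and less RNA per cell cannot be told apart. A gene was called where limma gave an adjusted p (q) up to 0.05 and a log2 fold change of 1 or more in either direction. The study's methods call the samples biological replicates and describe replicate flasks, and p-values measure the spread between these arrays.

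**Figure D1:**
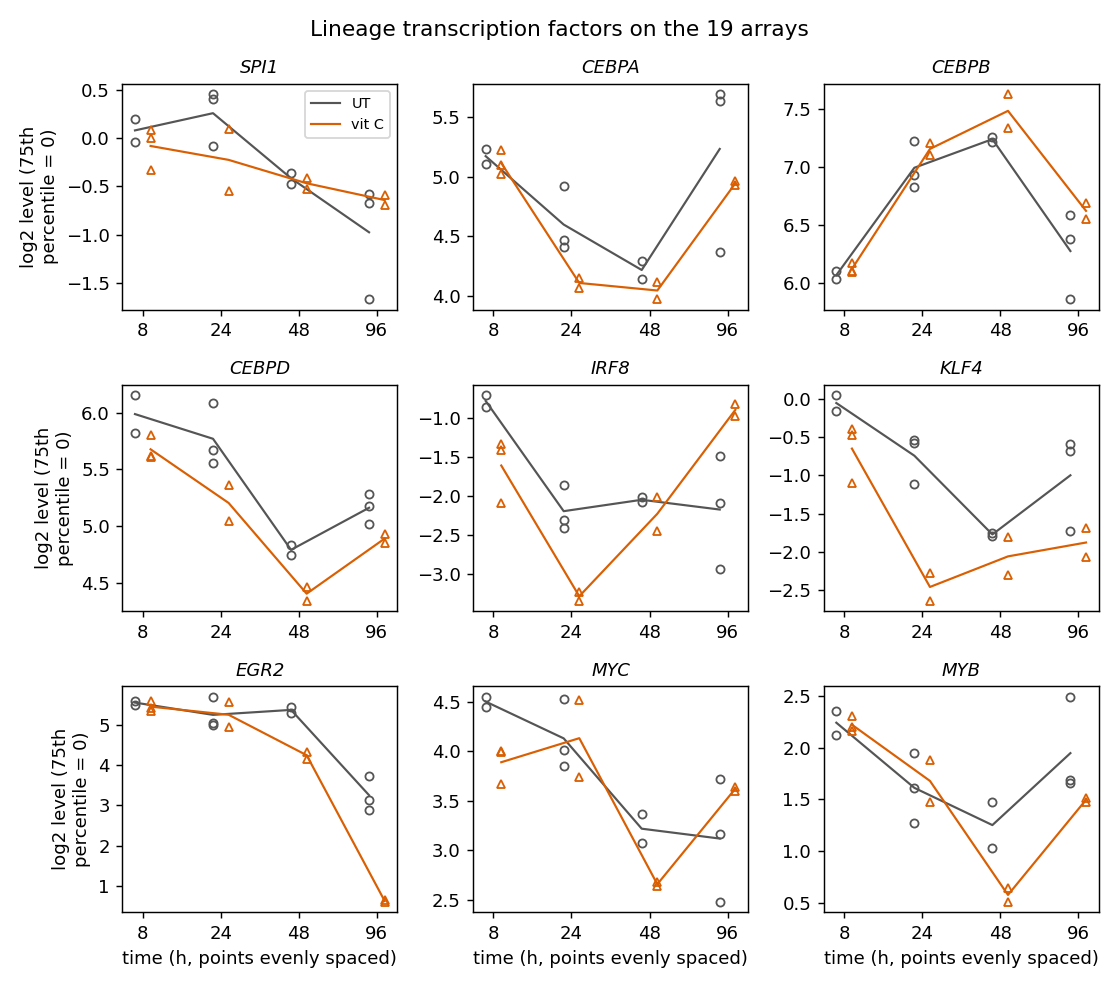
Level of each transcription factor (log2, the array's 75th percentile is 0) on the 19 arrays, by time in hours on an evenly spaced axis. Circles are UT arrays, triangles vit C arrays, and lines join the group means. EGR2 is lowest on both vit C arrays at 96 h, at 0.59 and 0.64, and CEBPB peaks at 48 h in both series.

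In UT cells 7 of the 9 factors changed over the 4 time points by an F test of limma with a range of at least 1 between group means, where 22.6% of all genes did. They were SPI1, CEBPB, CEBPD, IRF8, KLF4, EGR2 and MYC. The F tests kept genes with opposing probes, and MYC was removed for such probes from each of the 3 comparisons with 8 h. CEBPA, with a range of 1.02 (q = 0.075), and MYB, with a range of 0.99 (q = 0.085), did not pass. Against 8 h, 1 of 9 was called at 24 h (2.63% of all genes), 4 of 9 at 48 h (8.89% of all genes) and 3 of 9 at 96 h (16.1% of all genes). The 3 comparisons tested 7, 8 and 6 of the 9 and share the 2 arrays at 8 h. IRF8 fell first and was called lower at each of the later time points. CEBPB was the only factor called higher. Their median log2 fold change went from -0.37 at 24 h to -0.99 at 48 h and -0.94 at 96 h, beside medians of all genes of 0.06, 0.04 and 0.03.

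**Figure D2:**
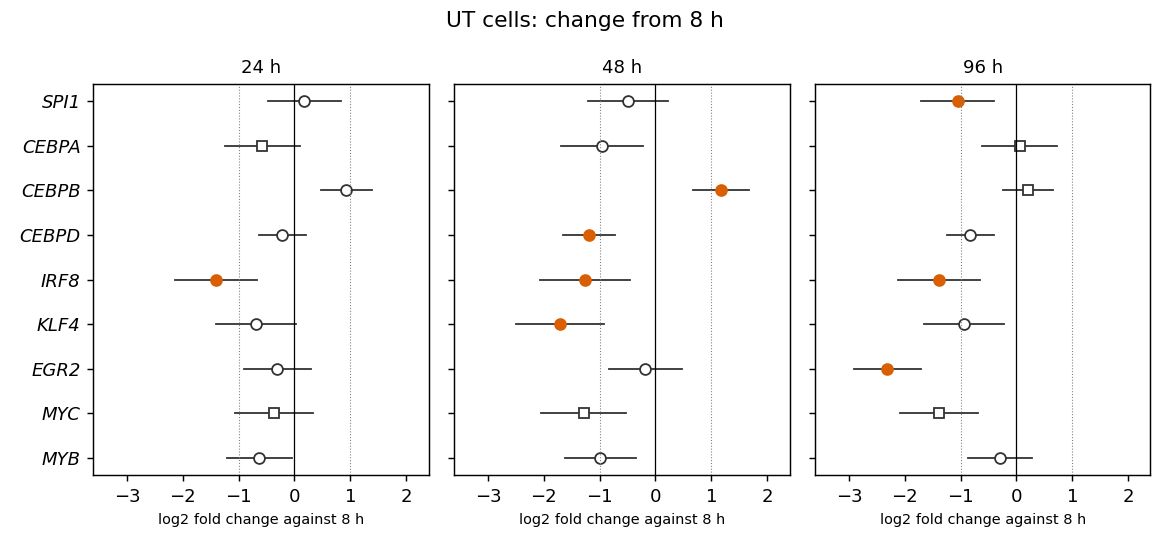
Log2 fold change of each factor in UT cells at 24, 48 and 96 h against 8 h, with the 95% interval of the limma fit. Filled orange symbols are called, squares are genes removed because their probes went in opposite directions, and dotted lines mark a log2 fold change of 1. CEBPB lies to the right of 0 at 48 h while CEBPD, IRF8 and KLF4 are called to the left, and EGR2 is the lowest at 96 h.

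The comparison with vit C gave 3 calls. Against UT cells of the same time, none of the 9 was called at 8 h (0.553% of all genes), 1 at 24 h (1.67% of all genes), none at 48 h (3.64% of all genes) and 2 at 96 h (12.8% of all genes). Tested were 7, 6, 7 and 6 of the 9. CEBPA and MYC were removed for opposing probes at each time, and CEBPB at 24 and 96 h. In limma 1 factor, IRF8, had an unadjusted p under 0.05 at 8 h, and 2, EGR2 and MYB, had one at 48 h. The calls were KLF4, lower at 24 h, EGR2, lower at 96 h, and IRF8, higher at 96 h. When the 4 effects were averaged, none was called (3.48% of all genes), since the 3 with a q under 0.05 stayed under the fold threshold: EGR2 at -0.97 ± 0.14 (SE, q = 0.00062), KLF4 at -0.87 ± 0.17 (q = 0.0046) and CEBPD at -0.38 ± 0.10 (q = 0.024). Whether the vit C effect differed between time points was tested with an F test, which 1 of the 9, EGR2, passed (1.35% of all genes).

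**Figure D3:**
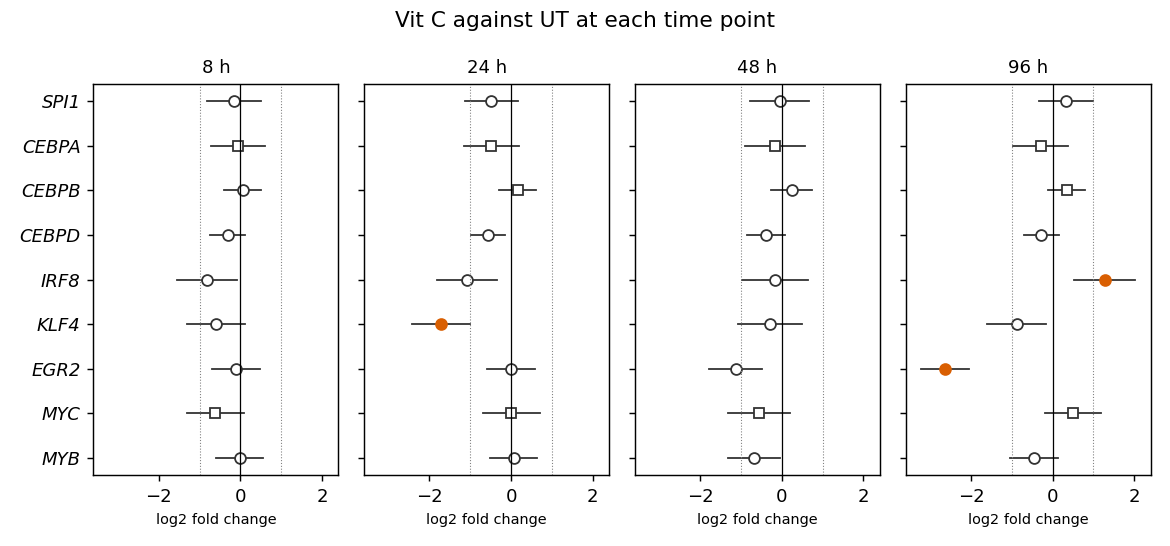
Log2 fold change of each factor in vit C-treated against UT cells at 8, 24, 48 and 96 h, with the 95% interval of the limma fit. Symbols are as in the plot of changes in UT cells. KLF4 is called lower at 24 h, and at 96 h EGR2 is called lower and IRF8 higher.

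SPI1 encodes PU.1, an ETS family factor without which macrophages do not form. Its level was 0.20 and -0.04 in UT cells at 8 h, -0.09, 0.40 and 0.46 at 24 h, -0.36 and -0.47 at 48 h and -0.68, -0.58 and -1.67 at 96 h. All UT arrays at 96 h lay below all at 8 h, and the third array at 96 h was far below the other two. SPI1 fell by 1.05 ± 0.31 (SE) on the log2 scale from 8 to 96 h, which is 2.08-fold (limma, q = 0.024). Without UT 8 h replicate 1 or 2 it was not called (q = 0.16 and 0.075). Without UT 96 h replicate 3 the log2 fold change was -0.71 (q = 0.0497), under the fold threshold, and within slide 1 it was -0.75 (q = 0.17). The call was also lost with normexp background correction (-0.95) and with the slide as a term (q = 0.33). With vit C the levels were 0.00, -0.33 and 0.08 at 8 h, 0.09 and -0.54 at 24 h, -0.53 and -0.41 at 48 h and -0.70 and -0.59 at 96 h. They overlapped the UT arrays at each time point, and the largest of the 4 differences was -0.48 at 24 h, with a 95% interval from -1.14 to 0.17.

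Of the C/EBP genes, which encode leucine zipper factors, CEBPB rose and CEBPD fell. CEBPB read 6.03 and 6.10 in UT cells at 8 h, 7.22, 6.83 and 6.93 at 24 h, 7.26 and 7.22 at 48 h and 6.58, 6.38 and 5.86 at 96 h. Every array at 24 and 48 h was thus above every array at 8 h, and at 96 h the level overlapped that at 8 h. The rise was 0.93 ± 0.21 at 24 h (limma, q = 0.030), just under the fold threshold, and 1.17 ± 0.23 at 48 h (2.26-fold, q = 0.0043). At 96 h the gene was removed from the test, because its second probe went the other way. With the mean of both probes the rise at 48 h was 0.95 and was not called.

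With vit C CEBPB also peaked at 48 h. It read 6.10, 6.09 and 6.17 at 8 h, 7.10 and 7.21 at 24 h, 7.34 and 7.63 at 48 h and 6.69 and 6.55 at 96 h. From 8 h it rose by 1.04 ± 0.21 at 24 h (limma, q = 0.0080) and by 1.36 ± 0.21 at 48 h (q = 0.00039). The second, dimmer probe also rose at 48 h in vit C-treated cells, by 1.40 ± 0.33 (q = 0.0090), and in UT cells it read 0.73 ± 0.36 higher at 48 h (q = 0.25). The vit C arrays overlapped the UT arrays at 8, 24 and 96 h and lay above them at 48 h. The difference of the means was between 0.05 and 0.35 at the 4 time points, and the 95% interval at 48 h ran from -0.25 to 0.74. At 96 h the brightest probe was 0.50 ± 0.21 above 8 h, and the gene was removed for its opposing probe. The rise at 24 h was not called without either vit C array at 24 h, nor with the mean of both probes (0.73) or with the percentile taken over probes detected on all arrays (0.99).

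RefSeq lists a pair of starts for CEBPB in its GRCh38.p14 annotation. The 250 bases before the second one, shown because CEBPB was the only factor called higher than at 8 h, lie at chr20:50190580-50190829 on the plus strand and are given 5′ to 3′ with the TATAAA match in capitals.
CEBPB: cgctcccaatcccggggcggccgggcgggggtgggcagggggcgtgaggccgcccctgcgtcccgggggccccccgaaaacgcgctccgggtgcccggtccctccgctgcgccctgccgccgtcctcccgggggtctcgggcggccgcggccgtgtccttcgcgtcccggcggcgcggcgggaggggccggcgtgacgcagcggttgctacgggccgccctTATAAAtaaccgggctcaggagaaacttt
The match begins 29 bases before the start. On either strand, 3763 of 35116 such human windows hold these letters. The C/EBP palindrome TTGCNNAA, held by 9.05% of windows, was not found in it.

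CEBPA and CEBPD were lowest at 48 h. CEBPA, which commits progenitors to the granulocyte and monocyte lineage, read 5.11 and 5.24 in UT cells at 8 h, 4.41, 4.47 and 4.92 at 24 h, 4.29 and 4.14 at 48 h and 5.64, 5.70 and 4.37 at 96 h. The 48 h arrays lay below both arrays at 8 h, but 96 h replicate 3 read below all arrays at 24 h while the other two were above 8 h. The log2 fold change at 48 h was -0.96 ± 0.34 (limma, q = 0.10). With vit C CEBPA read 5.10, 5.02 and 5.23 at 8 h, 4.15 and 4.07 at 24 h, 4.12 and 3.97 at 48 h and 4.96 and 4.93 at 96 h, so that the arrays of 24 and 48 h lay below the others. From 8 h the log2 fold change was -1.01 ± 0.31 at 24 h (q = 0.076) and -1.07 ± 0.31 at 48 h, where the gene was removed for an opposing probe. Of its 3 probes, the third spread widely, with an SD of 2.28 over the 3 UT arrays at 96 h, and in each comparison of vit C with UT it alone read higher with vit C.

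CEBPD, whose product partners C/EBPβ early in inflammatory activation, read 5.82 and 6.15 in UT cells at 8 h, 6.09, 5.67 and 5.55 at 24 h, 4.74 and 4.84 at 48 h and 5.18, 5.28 and 5.02 at 96 h. Both arrays at 48 h were below all other UT arrays. CEBPD fell by 1.197 ± 0.217 from 8 to 48 h (2.29-fold, limma, q = 0.0023), and at 96 h was 0.83 ± 0.20 lower (q = 0.0079), under the fold threshold. In vit C-treated cells it was 0.47 ± 0.20 lower at 24 h than at 8 h (q = 0.21). There it fell by 1.27 ± 0.20 from 8 to 48 h (q = 0.0004), and at 96 h was 0.79 ± 0.20 lower than at 8 h (q = 0.0086). Its vit C levels were 5.62, 5.80 and 5.61 at 8 h, 5.05 and 5.36 at 24 h, 4.46 and 4.34 at 48 h and 4.93 and 4.85 at 96 h. They lay below every UT array of the same time at each of the 4 time points. The means were 0.27 to 0.57 lower, and no single difference passed (q from 0.17 to 0.57).

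IRF8 is the interferon regulatory factor that turns progenitors toward monocytes and away from granulocytes. Its level was -0.72 and -0.86 in UT cells at 8 h, -1.87, -2.31 and -2.42 at 24 h, -2.02 and -2.08 at 48 h and -2.10, -2.94 and -1.496 at 96 h. No array after 8 h reached the level at 8 h. IRF8 fell by 1.41 ± 0.34 at 24 h (2.66-fold, limma, q = 0.041), by 1.26 ± 0.38 at 48 h (q = 0.048) and by 1.39 ± 0.34 at 96 h (q = 0.0097). All 3 calls were lost without either UT array at 8 h, with q from 0.18 to 0.25 at 24 h, 0.15 to 0.21 at 48 h and 0.051 to 0.077 at 96 h. The call at 24 h was also lost without UT 24 h replicate 2 or 3 (q = 0.11 and 0.12), and that at 48 h without either UT array at 48 h (q = 0.16 and 0.19). Normexp gave -0.98 at 24 h and -0.87 at 48 h, under the fold threshold, and with the slide as a term none of the 3 was called (q = 0.065, 0.068 and 0.11).

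With vit C, IRF8 was lowest at 24 h and highest at 96 h. It read -1.34, -1.41 and -2.09 at 8 h, -3.34 and -3.23 at 24 h, -2.02 and -2.44 at 48 h and -0.98 and -0.82 at 96 h. From 8 h it fell by 1.67 ± 0.34 at 24 h (limma, q = 0.0084), a call lost without either vit C array at 24 h (q = 0.060 and 0.057). That call was also lost with normexp, which gave -0.98 at 24 h. At 96 h IRF8 read 0.71 ± 0.34 above 8 h (q = 0.12). Against UT it was 0.83 ± 0.34 lower at 8 h (limma, q = 0.34) and 1.09 ± 0.34 lower at 24 h (q = 0.13), and the arrays of the 2 groups did not overlap at either time. At 96 h IRF8 was 1.27 ± 0.34 higher with vit C (2.42-fold, q = 0.035), with both vit C arrays above all UT arrays. Without UT 96 h replicate 3 this difference was 1.61 (q = 0.0059). Without UT 96 h replicate 1 or 2 or either vit C array at 96 h it was no longer called (q from 0.071 to 0.26), nor with normexp (0.86), quantile normalization (q = 0.064) or a floor of 20 (q = 0.059). The 4 effects ranged over 2.36, with an F test at q = 0.076, and at 0.015 without UT 96 h replicate 3. In the order of its 8 group means, UT at 8 h and vit C at 96 h were highest and overlapped, the next 5 groups overlapped each with its neighbour, and vit C at 24 h was lowest with a gap of 1.05.

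KLF4, a zinc finger factor that promotes monocyte differentiation, was lowest in UT cells at 48 h. It read -0.15 and 0.05 in UT cells at 8 h, -0.58, -0.54 and -1.11 at 24 h, -1.79 and -1.75 at 48 h and -0.59, -1.72 and -0.67 at 96 h. The arrays at 96 h were split, with replicate 2 near the level at 48 h and the other two near that at 24 h. KLF4 fell by 1.72 ± 0.37 from 8 to 48 h (3.29-fold, limma, q = 0.0074). At 96 h it was 0.94 ± 0.34 lower than at 8 h (q = 0.061). The call at 48 h was lost without UT 8 h replicate 2 (q = 0.067) or without UT 48 h replicate 1 (q = 0.051). Without UT 96 h replicate 1 or 3 the fall at 96 h was called, at -1.15 (q = 0.033) and -1.11 (q = 0.040). Without UT 96 h replicate 2 it was -0.58 (q = 0.18), and within slide 1 it was -0.54 (q = 0.33).

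In vit C-treated cells KLF4 was at its lowest already at 24 h. It read -0.39, -0.47 and -1.09 at 8 h, -2.64 and -2.28 at 24 h, -1.81 and -2.30 at 48 h and -2.06 and -1.69 at 96 h. From 8 h it fell by 1.81 ± 0.34 at 24 h (limma, q = 0.0041), by 1.41 ± 0.34 at 48 h (q = 0.0092) and by 1.23 ± 0.34 at 96 h (q = 0.013). The calls at 48 and 96 h were lost without vit C 48 h replicate 2 (q = 0.11) and vit C 96 h replicate 1 (q = 0.096). Both were also lost with normexp, at -0.95 and -0.99, and that at 48 h with the slide as a term (-1.16, q = 0.099) and within slide 2 (q = 0.11). Against UT it was 1.72 ± 0.34 lower at 24 h (3.28-fold, q = 0.021), with no overlap between the arrays. With the slide as a term the log2 fold change at 24 h was -1.11 and was not called (q = 0.64), and it was not called without UT 24 h replicate 1 or 2 or either vit C array at 24 h (q from 0.063 to 0.11). At 8, 48 and 96 h the differences were -0.60, -0.29 and -0.88 (q from 0.093 to 0.84), where leaving out UT 96 h replicate 2 gave -1.24 at 96 h (q = 0.028), and the F test of the 4 effects gave q = 0.28, so that an effect confined to 24 h was not shown.

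The 250 bases before the RefSeq start of KLF4 are shown because its response to vit C was the earliest called. They lie at chr9:107489770-107490019 on the minus strand of GRCh38.p14, and the capitals mark both matches to the GC box GGGGCGGGG, which zinc finger factors such as SP1 bind.
KLF4: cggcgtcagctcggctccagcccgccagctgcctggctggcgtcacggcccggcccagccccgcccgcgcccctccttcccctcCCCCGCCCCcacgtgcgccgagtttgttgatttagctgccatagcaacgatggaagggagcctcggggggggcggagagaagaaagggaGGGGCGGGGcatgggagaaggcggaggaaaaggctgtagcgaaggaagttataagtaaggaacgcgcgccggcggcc
The matches begin 166 and 77 bases before the start, the first on the opposite strand, and 15.1% of windows hold one. The E-box CACGTG follows directly on the first, without overlap, and 6.34% of windows hold it.

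EGR2, an immediate early zinc finger factor of macrophage differentiation, showed the largest changes of the 9. It read 5.61 and 5.52 in UT cells at 8 h, 5.71, 5.05 and 5.01 at 24 h, 5.31 and 5.45 at 48 h and 3.15, 2.88 and 3.74 at 96 h. The first 3 time points overlapped or lay close together, and all arrays at 96 h were far below them. EGR2 fell by 2.31 ± 0.28 from 8 to 96 h (4.95-fold, limma, q = 3.1e-05). The value was -2.55 without UT 96 h replicate 3, still called, and -2.42 within slide 1, where 1 array at 96 h remains.

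With vit C EGR2 was lower than in UT cells at 48 and 96 h. It read 5.43, 5.61 and 5.34 at 8 h, 4.95 and 5.57 at 24 h, 4.17 and 4.34 at 48 h and 0.59 and 0.64 at 96 h. Each vit C array at 48 h was below every UT array at 48 h, and the same held at 96 h. From 8 h EGR2 fell by 1.21 ± 0.28 at 48 h (limma, q = 0.0072), a call lost without vit C 48 h replicate 1 (q = 0.069) and within slide 2 (q = 0.062), and by 4.84 ± 0.28 at 96 h (28.7-fold, q = 2.6e-08), where slide and time cannot be told apart. Its log2 difference from UT was -0.10 (8 h) and 0.00 (24 h), then -1.13 ± 0.30 at 48 h (q = 0.057) and -2.64 ± 0.28 at 96 h (6.22-fold, q = 0.00011). The difference at 48 h was called with quantile normalization (q = 0.034), with normexp (q = 0.041) and with dim probes left out (q = 0.040). Among the 8 group means, the 5 groups at 8 and 24 h and UT at 48 h overlapped each with its neighbour, and vit C at 48 h, UT at 96 h and vit C at 96 h followed with gaps of 1.01, 1.00 and 2.64.

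The window before the third RefSeq start of EGR2, the one nearest the gene's 3′ end, is shown because EGR2 carried the largest difference with vit C. It lies at chr10:62816367-62816616 on the minus strand of GRCh38.p14, and the capitals mark a CArG box, the site of serum response factor.
EGR2: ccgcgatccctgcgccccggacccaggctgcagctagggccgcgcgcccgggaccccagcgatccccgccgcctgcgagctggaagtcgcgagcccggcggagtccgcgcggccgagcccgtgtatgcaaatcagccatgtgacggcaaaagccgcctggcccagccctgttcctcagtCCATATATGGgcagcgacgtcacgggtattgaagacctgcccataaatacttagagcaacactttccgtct
The box begins 71 bases before the start, and 1.16% of the windows hold one. None was found before the other starts of EGR2 or in the windows of CEBPA, CEBPB, IRF8, KLF4 and MYB.

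MYC and MYB belong to the growing progenitor. MYC, which drives ribosome building and cell growth, read 4.45 and 4.55 in UT cells at 8 h, 4.53, 4.01 and 3.85 at 24 h, 3.07 and 3.37 at 48 h and 3.16, 2.48 and 3.72 at 96 h. The arrays at 48 and 96 h were all below those at 8 h. The brightest probe was 1.29 ± 0.36 lower at 48 h and 1.39 ± 0.32 lower at 96 h. MYC was removed from both tests, since both dimmer probes went the other way, and limma with opposing probes kept gave q = 0.040 and 0.0085. One of those probes was above background on no array, and the other read 0.14 and 0.16 higher. With the mean of all MYC probes the log2 fold change was -0.11 at 48 h (q = 0.82) and -0.30 at 96 h (q = 0.38). With vit C MYC read 4.01, 3.99 and 3.67 at 8 h, 3.74 and 4.52 at 24 h, 2.63 and 2.68 at 48 h and 3.64 and 3.60 at 96 h. The differences from UT were between -0.61 and 0.50, and the interval at 96 h ran from -0.19 to 1.1995.

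MYB, which keeps progenitors immature, read 2.13 and 2.36 in UT cells at 8 h, 1.61, 1.27 and 1.95 at 24 h, 1.47 and 1.03 at 48 h and 1.66, 1.69 and 2.49 at 96 h. It was 0.63 ± 0.27 lower at 24 h (limma, q = 0.27) and 0.99 ± 0.30 lower at 48 h (q = 0.049), just under the fold threshold. With vit C it read 2.20, 2.30 and 2.16 at 8 h, 1.47 and 1.89 at 24 h, 0.51 and 0.65 at 48 h and 1.48 and 1.52 at 96 h. There it fell by 1.64 ± 0.27 from 8 to 48 h (3.12-fold, q = 0.00064), and at 96 h it was 0.72 ± 0.27 lower than at 8 h (q = 0.0495), under the fold threshold. The vit C arrays at 48 h were the lowest of all 19, 0.67 ± 0.30 below UT (q = 0.27).

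The vit C time course, with its own 8 h arrays as the base, called 3 of 9 at 24 h (5.62% of all genes), 5 of 9 at 48 h (13.1% of all genes) and 3 of 9 at 96 h (29.0% of all genes). The factors tested numbered 8, 7 and 8. At 24 h CEBPB rose while IRF8 and KLF4 fell. At 48 h CEBPB rose and CEBPD, KLF4, EGR2 and MYB fell. At 96 h KLF4 and EGR2 were called lower, in a comparison of slide 3 with slide 2. The third call at 96 h was MYC, and it rested only on the probe that was above background on no array, so that it carries no level. The brightest MYC probe was 1.23 ± 0.32 lower at 48 h, where the gene was removed for opposing probes (q = 0.020 with them kept), and differed by -0.27 ± 0.32 at 96 h.

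Relatives of the 9 factors moved as follows. Of 25 partner factors (EGR1, EGR3, SPIB, CEBPG and others) none was called in UT cells at 24 h (2.63% of all genes), 3 were called at 48 h, all lower (8.89% of all genes), and 6 at 96 h, 2 higher and 4 lower (16.1% of all genes). They were counted among 21, 19 and 21 partners tested. The list's median log2 fold change at 96 h was -0.16, beside 0.03 for all genes. EGR1, an immediate early factor like EGR2, fell by 3.65 ± 0.25 at 96 h (limma, q = 2.1e-07). EGR3 was also called lower at 96 h, where 2 of 3 UT arrays held it well above background, so that no size is given. CEBPG, a C/EBP family member without an activation domain, rose by 1.78 ± 0.17 (q = 3.1e-06).

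With vit C no partner was called at 8 h among 19 tested (0.553% of all genes) or at 24 h among 21 tested (1.67% of all genes). GFI1 was called at 48 h among 19 tested (3.64% of all genes) and 4 were at 96 h among 22 tested (12.8% of all genes), all lower. The list's median was -0.40 at 96 h, beside -0.15 for all genes. GFI1, a transcriptional repressor needed for granulocytes, was below UT by 1.12 ± 0.26 at 48 h (limma, q = 0.030), a call lost without any 1 of the 4 arrays (q from 0.059 to 0.24). SPIB, the closest relative of SPI1, was 1.74 ± 0.22 lower at 96 h (q = 0.00034). EGR3 was called lower there too, though not without either vit C array (q = 0.055 and 0.16), and is given no size since 1 of 2 vit C and 2 of 3 UT arrays held it well above background. EGR1 was 0.97 ± 0.25 lower (q = 0.033), just under the fold threshold. The other two calls were SPIC and IRF4, whose brightest probes were not well above background on any array of either group, so that they carry no level.

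Other families had single calls or a few. Of 7 IRF genes on the arrays, IRF7, which amplifies interferon production, was called in UT cells at 48 h (-1.30 ± 0.22, limma, q = 0.0016) and 96 h (-2.54 ± 0.20, q = 7.8e-07), and none besides (8.89 and 16.1% of all genes). Of these 7, which leave out IRF8, only IRF4 was called with vit C against UT, as above. Of 11 members of the MYC-MAX network, MXD3, an antagonist of MYC, rose by 1.62 ± 0.47 at 48 h (q = 0.042) and 2.28 ± 0.43 at 96 h (q = 0.0014), where MXD4 and MLX were called lower. At 48 h the call of MXD3 was lost without any 1 of the 4 arrays (q from 0.15 to 0.17). Without UT 96 h replicate 3 MXD4 went from -1.20 to -0.61 (q = 0.051) and MLX from -1.11 to -0.89, neither of them called, and MXD4 was not called without either UT array at 8 h. The network's calls were 1 of 9 tested at 48 h (8.89% of all genes) and 3 of 7 tested at 96 h (16.1% of all genes). With vit C 1 of 6 tested at 96 h, MYCN, was called (12.8% of all genes), not by its brightest probe. Of 22 growth genes that MYC drives, 1 was called in UT cells at 48 h, POLR1B, lower and by a dimmer probe, and none at 24 or 96 h or against UT with vit C. That is 1 of 20 tested at 48 h (8.89% of all genes), 0 of 17 tested at 96 h (16.1% of all genes) and 0 of 14 tested with vit C at 96 h (12.8% of all genes). Their median at 48 h was -0.31, beside 0.04 for all genes.

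**Figure D4:**
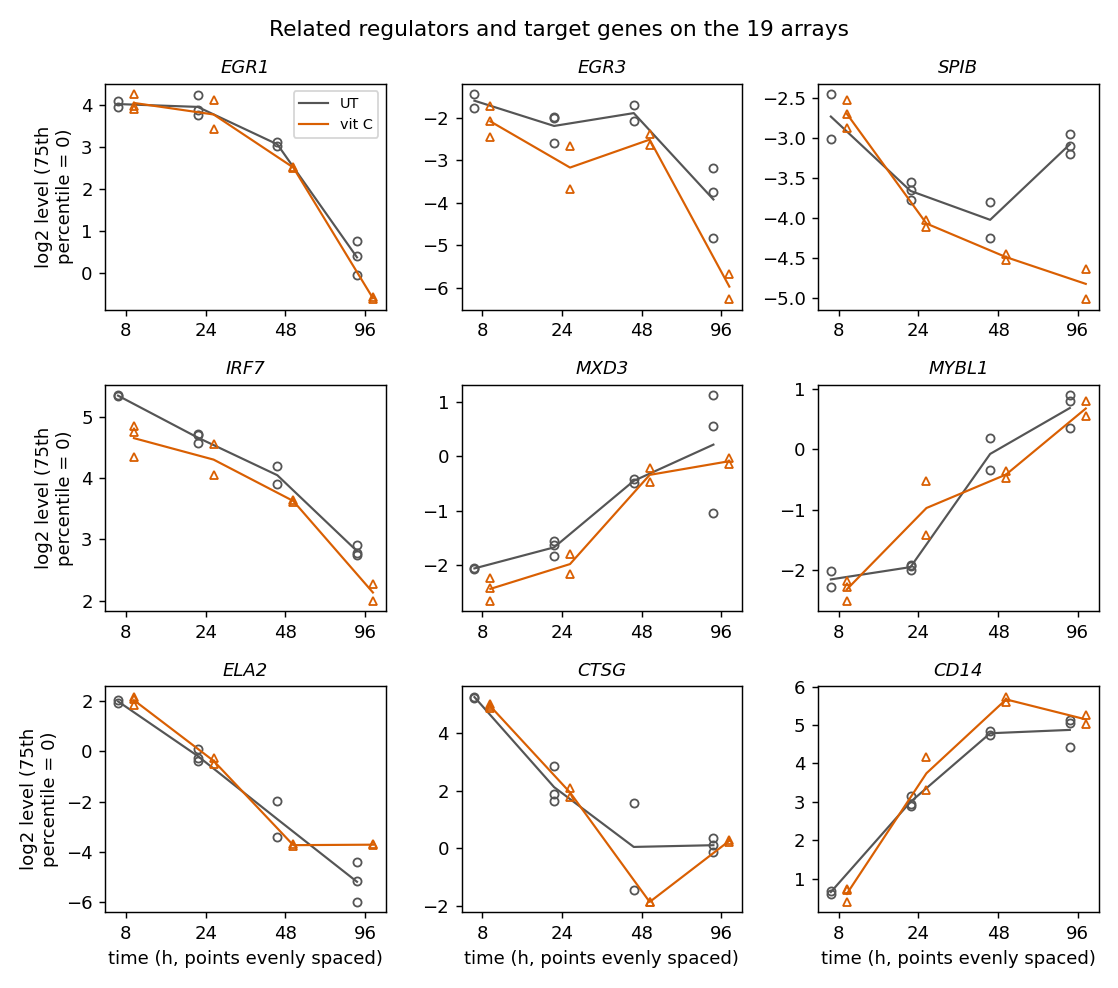
Level (log2, the array's 75th percentile is 0) of related regulators and target genes on the 19 arrays, by time in hours on an evenly spaced axis. Symbols are as in the plot of the 9 factors. EGR1 is lowest at 96 h in both series, ELA2 and CTSG lie below and CD14 above their 8 h level at all later times.

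Genes of the myeloid progenitor were called at each time in UT cells. Of 14 such genes, 5 were called in UT cells at 24 h (2.63% of all genes), all of them lower. The call of FLT3 was lost without any 1 of the 5 arrays, and those of CTSG and ELA2 without either UT array at 8 h. That of PRTN3 was lost without UT 8 h replicate 1. At 48 h 7 were called (8.89% of all genes), MYBL1 higher and 6 lower. At 96 h 10 were called (16.1% of all genes), of which 3 rose and 7 fell. The primary granule proteases, which MYB, PU.1 and C/EBP factors switch on in promyelocytes, were among the lower ones at all 3 times. ELA2 (neutrophil elastase) fell by 4.70 ± 0.45 at 48 h (limma, q = 1.25e-05) and CTSG (cathepsin G) by 5.21 ± 0.65 (q = 0.00011), and PRTN3, proteinase 3, fell by 3.83 ± 0.34 (q = 5.9e-06). Leaving out 1 array moved the log2 fold change of CTSG to between -6.72 and -3.70 and that of ELA2 to between -5.43 and -3.98. At 96 h ELA2 was also called lower, but only 1 of 3 arrays held it well above background, so that no size is given. With vit C 2 genes of the list, KIT and AZU1, were called at 48 h (3.64% of all genes), both lower. The call of AZU1 was lost without any 1 of the 4 arrays. At 96 h 3 were called (12.8% of all genes), BCL2 and KIT lower and ELA2 higher. The calls of BCL2 and ELA2 were each lost without 3 of the 5 arrays, namely UT 96 h replicate 1 and vit C 96 h replicate 1 for both, UT 96 h replicate 2 for BCL2 and vit C 96 h replicate 2 for ELA2. KIT, the stem cell factor receptor, was well above background on no vit C array and on all UT arrays at 96 h, and was at least 8.26-fold lower (q = 0.00026).

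Of 19 macrophage genes that PU.1 and C/EBP factors drive, 3 were called in UT cells at 24 h (2.63% of all genes), of which 2 rose and 1 fell. At 48 h 2 rose and 4 fell (8.89% of all genes), and at 96 h 2 rose and 3 fell (16.1% of all genes). CD14, the LPS coreceptor, rose by 2.35 ± 0.26 at 24 h, 4.14 ± 0.29 at 48 h and 4.23 ± 0.26 at 96 h (limma, q = 0.00022, 5.5e-07 and 8.3e-08). LYZ, lysozyme, was called lower at 48 h, where 1 of 2 arrays held it well above background, so that no size is given. With vit C each of the times 24, 48 and 96 h had 2 called genes of the list, where 1.67, 3.64 and 12.8% of all genes were called. They included ITGAM, an integrin of the complement receptor, lower at 48 h (-1.17 ± 0.18, q = 0.0033). MSR1, a scavenger receptor, was also called lower at 48 h, a call lost without any 1 of the 4 arrays. At 96 h LYZ was called higher (1.17 ± 0.36, q = 0.043) and MSR1 lower (-1.07 ± 0.26, q = 0.026). LYZ was not called without UT 96 h replicate 1 or 2 or either vit C array (q from 0.094 to 0.28), nor MSR1 without UT 96 h replicate 3 (-0.83) or either vit C array (q = 0.094 and 0.15).

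Over the 8 group means, the genes most like EGR2 among 17286 detected on all arrays were C13orf15, with Pearson's r of 0.99, a transcript named HsapiAL049319 on the array, with 0.987, and CD83, a marker of activated antigen presenting cells, with 0.986. For IRF8 they were ARHGAP18 (0.983), SH3KBP1 (0.971) and ZW10 (0.938), and for KLF4 RNH1 (0.974), AMDHD2 (0.97) and CHP (0.966). Among the 9 factors themselves, CEBPA and CEBPB had the most negative r, -0.962, and CEBPD and MYC the most positive, 0.871. These are descriptions over 8 points that share arrays and slides.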

How the data were processed

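Total RNA of the THP-1 flasks was labelled with Cy3 and hybridised to Agilent 1-colour arrays, and per the file headers the scans were read with Feature Extraction 10.5.1.1. The deposited scanner files hold, for each spot, a processed signal intensity, already background-corrected by the authors' software. The authors also deposited log2 values shifted to the 75th percentile, and these served as an alternative. The arrays carry 52857 spots, of which 51538 are no controls. From the intensity, log2 was taken, each array's 75th percentile was subtracted and spots of a probe were averaged, leaving 50238 probes. Spots flagged as outliers were kept. One model with the 8 groups was fitted to all 19 arrays with limma 3.58.1 (R 4.3.3), with Benjamini-Hochberg adjustment over all probes tested in a comparison. A gene was called where any of its probes passed. A gene was represented by its probes, and left out of a comparison of 2 groups, or of the average effect, where they opposed each other. F tests, which left out no gene, asked whether UT cells changed over the 4 time points and whether the 4 vit C effects differed, and 13 comparisons were made in all. The steps were tested on simulated data, and figures were drawn with matplotlib 3.10.9 (Python 3.11.15).

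All 9 factors are named, with the brightest probe, and log2 fold changes are given where a comparison was called, reached 1 or had an unadjusted p of at most 0.05. From each list of related genes, called genes with the largest change of the brightest probe are named, and some are not reported here. Factors, lists and tests were chosen with earlier results of these data known. The number of arrays limits the precision. Promoter windows came from RefSeq (GRCh38.p14). They covered 6 of the 9 factors, MYC and CEBPD being left out and the set of windows used here holding none for SPI1. Motifs were searched on both strands: the CArG box, CACGTG, TTGCNNAA, TGACGTCA, GAGGAAGT, GGGGCGGGG and TATAAA. The alternatives were the methods' t-test, limma on 2 groups, other normalizations, background correction, floors, filters, probe rules, slide terms, replicate blocks and leaving out each array. For the related genes only the last was run, chosen after seeing the data.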

Additional observations from a re-analysis of the deposited data

Results flagged for a closer look

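The vit C effect on EGR2 differed between the time points. From -0.10 at 8 h and 0.00 at 24 h the log2 fold change against UT went to -1.13 at 48 h and -2.64 at 96 h, a range of 2.64 (limma F test of the differences, q = 0.0124). Both vit C arrays at 96 h were on a slide of their own, so that slide and treatment cannot be told apart there. The q was 0.077 without vit C 96 h replicate 1 and 0.057 without replicate 2.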

How the results depend on the processing

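Of 45 log2 fold changes of the 9 factors, recomputed 899 times in all, 789 kept their direction and their side of the threshold, 86 were no longer called, 23 became called and 1 changed sign: CEBPB in vit C-treated cells at 96 h against 8 h, from 0.50 to -0.079 with the mean of its probes. The methods' t-test after Benjamini-Hochberg called 0 factors in UT cells at 24, 48 and 96 h, 0 with vit C against UT at 24 and 96 h, 0 in vit C-treated cells at 24 h and 1 at 96 h. Limma on the 2 groups alone called 0 in UT cells at 24 h, 1 at 96 h, and 0 with vit C at 24 and 96 h. Against UT at 48 h, 1 factor, EGR2, was called with quantile normalization, normexp and the filter on dim probes, and at 96 h 1 was called with quantile normalization, normexp and a floor of 20. In UT cells at 24 h normexp and opposing probes kept gave 0 and the mean of probes 2. Under normexp 2 factors passed the F test of the vit C effects. With the slide as a term, 0 were called in UT cells at 24 h, 1 at 96 h, 0 with vit C at 24 h and 4 by the F test over UT time. The vit C effects at 96 h could not be fitted with the slide as a term.

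Replicate numbers did not pair the arrays, since 1 of 8 pairs correlated above 0.1 (-0.336 to 0.129). With the replicate block 0 factors were called in UT cells at 24 h and 1 with vit C at 96 h, also 1 with the numbers of the descriptions.

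Leaving out each array in turn, the factors called ranged from 0 to 1 in UT cells at 24 h, 2 to 3 at 48 h and 1 to 4 at 96 h. Against UT they ranged from 0 to 0 at 8 h, 0 to 1 at 24 h, 0 to 0 at 48 h, 1 to 2 at 96 h and 0 to 1 on average. In vit C-treated cells they ranged from 1 to 3 at 24 h, 4 to 5 at 48 h and 2 to 3 at 96 h. By the F tests they were 5 to 7 over UT time and 0 to 3 for the vit C effects.

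Over all alternatives, the genes called in UT cells at 24, 48 and 96 h ranged from 0 to 768, 1 to 2594 and 264 to 4979. Against UT at 8, 24, 48 and 96 h they ranged from 9 to 502, 0 to 558, 0 to 1169 and 0 to 5965, and on average from 245 to 1183. For vit C arrays at 24, 48 and 96 h against 8 h they ranged from 0 to 1543, 1742 to 3786 and 4068 to 9064, and by the F tests from 4038 to 7802 and 128 to 1260. Quantile normalization moved the median of all genes by 0.12 and 0.11 with vit C at 24 and 96 h.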
